A study of Gallus gallus with 72 samples.

Results

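Breast muscle of male Cornish broiler chickens was compared between day 21 and day 1 after hatch (D21 and D1), with 6 RNA sequencing libraries at each age. Cornish is a meat-type breed used here as a purebred line, and no allele, transgene or treatment is given in the labels, which differ between the groups by age alone. The members are the 12 libraries whose labels read Cornish D1 or D21, out of 72 libraries in the series, which covers Cornish, White Plymouth Rock and crossbred birds at 4 stages, embryonic day 17 (E17), D1, D21 and day 42 (D42), in groups of 6. The source label, given under a tag for cell lines, names breast muscle myofibroblasts, whereas the extraction protocol describes frozen breast muscle, and the labels do not say whether the 6 libraries of a group came from separate birds. Each p-value here therefore measures only the spread between these libraries, which may be partly technical.

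The breast muscle of a hatchling changes quickly in its first weeks. Muscle fibres no longer increase much in number after hatch but enlarge, partly by taking in nuclei from satellite cells, the stem cells of muscle. The adult chicken breast is made almost wholly of fast, pale, glycolytic fibres that burn glycogen to lactate, and slow contractile proteins, present in the embryo, become rare in it as it matures. A hatchling also draws on yolk lipid and then on carbohydrate feed. The immune system of the young bird is still being built up at hatch. Gene levels below are CPM, counts scaled by TMM to a common library total, and a gene is said to have risen or fallen at D21 where edgeR's quasi-likelihood test gave a Benjamini-Hochberg adjusted p under 0.05 over all genes tested. Fold changes are on the log2 scale, also where a gene rose or fell by a stated value, and stand with an approximate standard error. It is the size of the fold change divided by the square root of the test's F statistic.

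Total counts ran from 53680958 to 75670549 in the D1 libraries and from 51730796 to 56362129 in the D21 libraries. The 10 most abundant genes took 10.3% to 15.9% of the counts at D1 and 20.2% to 25.5% at D21. TMM scaling factors, which correct for such a shift, were 0.996 to 1.32 at D1 and 0.768 to 0.976 at D21. The tissue label was checked against 10 measured markers of skeletal muscle fibres, whose summed level was 34875 to 52589 CPM at D1 and 67704 to 96247 CPM at D21. Of 12 markers of skin epithelium in the count table, 8 passed the filter on low counts. These 8 summed to 9.55 to 19.7 CPM at D1 and 9.39 to 17.7 CPM at D21, and none of them was at 0 in every library of a group.

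Of 11398 genes tested, 6372 (55.9%) differed between D21 and D1, 3119 higher at D21 (27.4%) and 3253 lower (28.5%). At least 2-fold changes were found for 1367 genes that rose and 1023 that fell, and changes of at least 16-fold for 81 and 57. The groups did not overlap for 1948 genes higher at D21 (17.1%) and 1955 genes lower (17.2%). The split between rises and falls depended on scaling. With total counts in place of TMM, 1760 genes rose and 5152 fell, and the median gene moved from -0.02 to -0.34 on the log2 scale. The first principal component held 68.6% of the variance and separated the ages. The median over all genes tested, -0.02, is the value beside which the median of each gene list below stands. The shares of all genes tested, 27.4% risen and 28.5% fallen, stand likewise beside the counts of each list.

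**Figure D1:**
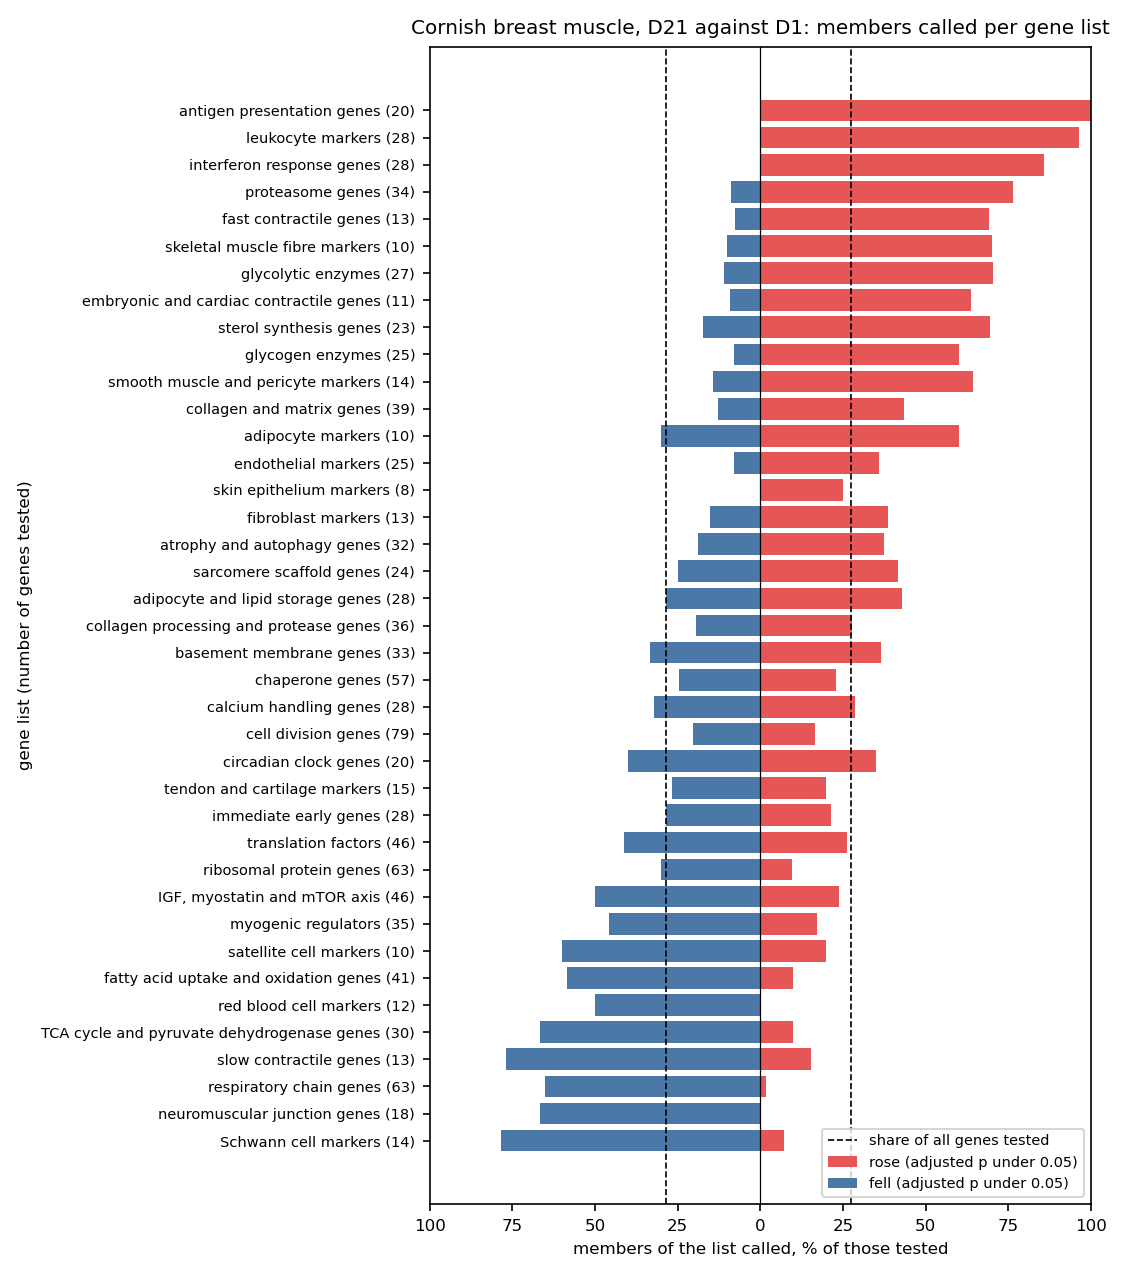
For each gene list (vertical axis, number of genes tested in brackets) bars give the percent of tested members that rose (right) or fell (left) at D21, with dashed lines at the shares of all genes tested, 27.4% and 28.5%. All 20 antigen presentation genes rose, while neuromuscular junction and red blood cell lists held no member that rose.

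Most glycolytic enzymes rose. Of 27 glycolytic genes tested 19 rose and 3 fell, with a median log2 fold change of 1.47, and their summed level was 14629 to 24576 CPM at D1 and 113721 to 183759 CPM at D21. GAPDH, the dehydrogenase at the middle of the pathway, was at 6519.96 to 13583 CPM at D1 (median 10809.6) and at 56689.8 to 90299.5 CPM at D21 (median 72284). Every D21 library was above every D1 library (log2 fold change 2.78 ± 0.23, adjusted p = 3.44e-07), and the share of all counts that fell on GAPDH went from a mean of 1.17% to 6.43%. GAPDH is often used as a reference gene for expression measurements.

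LDHA, the lactate dehydrogenase subunit of fast muscle, lay between 1114 and 1673 CPM at D1, with a median of 1476, and between 18278 and 31731 CPM at D21, with a median of 25171. LDHB, the subunit typical of heart and oxidative tissue, ranged from 142 to 286 CPM (median 201) at D1 and from 59.98 to 68.2 CPM (median 66.5) at D21. The groups were apart for both genes and in opposite directions: LDHA rose 16.96-fold (log2 fold change 4.08 ± 0.20, adjusted p = 4.06e-09) and LDHB fell 3.22-fold (log2 fold change -1.69 ± 0.16, adjusted p = 1.37e-06). GPD1, the cytosolic glycerol 3-phosphate dehydrogenase that passes glycolytic reducing power on, was at 123 to 256 CPM at D1 (median 179.9) and at 4173 to 6263 CPM at D21 (median 4963), with no overlap (log2 fold change 4.70 ± 0.22, adjusted p = 2.14e-09). PFKM, the muscle phosphofructokinase that commits sugar to glycolysis, lay between 1258 and 2455 CPM at D1, with a median of 1635, and between 9165 and 15106 CPM at D21, with a median of 11119, again with the groups apart (log2 fold change 2.67 ± 0.21, adjusted p = 1.87e-07). Its platelet-type paralogue PFKP also rose, by 0.76 ± 0.11 (adjusted p = 3.48e-05).

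The gene listed as PGK2, a phosphoglycerate kinase, had a log2 fold change of 4.57 ± 0.26 (adjusted p = 1.27e-08). TPI1, triose phosphate isomerase, rose by 2.64 ± 0.20 (adjusted p = 1.37e-07) and FBP2, the muscle fructose bisphosphatase, by 3.80 ± 0.25 (adjusted p = 4.57e-08). These gains were not shared by every isozyme. ALDOC, an aldolase best known from brain, fell by 0.97 ± 0.16 (adjusted p = 0.000147). Of the hexokinases, HK1 rose by 1.11 ± 0.18 (adjusted p = 0.000126), whereas HK2, the insulin-responsive form of mammalian muscle, ranged from 83.2 to 157 CPM (median 115) at D1 and from 75.9 to 208 CPM (median 112) at D21, with overlapping groups and no call (log2 fold change 0.08 ± 0.24, adjusted p = 0.786).

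Glycogen and purine nucleotide genes followed with 15 rises and 2 falls among 25 tested and a median of 0.62, or 12 and 5 with total counts. PGM1, phosphoglucomutase, links glycogen to glycolysis and was at 521 to 1141 CPM at D1 (median 698) and at 7996 to 13570.3 CPM at D21 (median 9495). AMPD1, the muscle AMP deaminase, lay between 101 and 195 CPM at D1, with a median of 147, and between 1225 and 2919.6 CPM at D21, with a median of 1601. No D21 library reached down to the D1 range for either gene (log2 fold change 3.65 ± 0.24, adjusted p = 3.81e-08 for PGM1 and log2 fold change 3.61 ± 0.25, adjusted p = 5.60e-08 for AMPD1, respectively). The 2 that fell were PPP1R3C, a subunit that targets a phosphatase to glycogen (log2 fold change -1.14 ± 0.27, adjusted p = 0.00215), and GBE1, the branching enzyme (log2 fold change -0.72 ± 0.21, adjusted p = 0.008298). For both, the groups overlapped.

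Nuclear genes of mitochondrial oxidation went the other way. Of 30 genes of the TCA cycle and pyruvate dehydrogenase 20 fell and 3 rose (median -0.63), of 63 respiratory chain genes 41 fell and 1 rose (median -0.50), and of 41 genes that take up or oxidise fatty acids 24 fell and 4 rose (median -0.77). CS, citrate synthase, the entry enzyme of the TCA cycle, ranged from 471 to 1212 CPM (median 804) at D1 and from 237 to 331 CPM (median 249.97) at D21. The lowest D1 library stood above the highest D21 library (log2 fold change -1.65 ± 0.18, adjusted p = 4.39e-06).

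ACAA2, the last enzyme of mitochondrial beta-oxidation, was at 427 to 723 CPM at D1 (median 556) and at 65.3 to 84.1 CPM at D21 (median 78.9). ETFA, which hands electrons from that pathway to the respiratory chain, lay between 239 and 545 CPM at D1, with a median of 397, and between 43.9 and 56.4 CPM at D21, with a median of 53.6. The falls were 7.33-fold and 7.29-fold, with the groups apart in each (log2 fold change -2.87 ± 0.13, adjusted p = 2.14e-09 and log2 fold change -2.87 ± 0.19, adjusted p = 4.03e-08, respectively). COX6A1, a nuclear subunit of cytochrome oxidase, ranged from 208 to 344 CPM (median 254) at D1 and from 47.4 to 61.99 CPM (median 54.7) at D21, without overlap (log2 fold change -2.27 ± 0.13, adjusted p = 1.27e-08). The 1 respiratory chain gene that rose was UQCR10, a small subunit of complex III (log2 fold change 0.61 ± 0.15, adjusted p = 0.00318), a call lost with total counts (0.25, adjusted p = 0.140).

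Of the 13 messenger RNAs encoded in the mitochondrial genome, chosen after their values were seen, 1 fell (ND6, log2 fold change -1.60 ± 0.17, adjusted p = 2.58e-06) and none rose, with a median of -0.18. Their difference from the nuclear respiratory chain genes was not tested. COX1, the catalytic core of cytochrome oxidase, was at 16435 to 47238 CPM at D1 (median 27691) and at 19535 to 30740.03 CPM at D21 (median 21418), with overlapping groups and no call (log2 fold change -0.34 ± 0.24, adjusted p = 0.238). With total counts COX1 was called lower (-0.64, adjusted p = 0.00423). ND6 lies on the other strand of the mitochondrial genome, and the strand setting of the counting is not given in the sources used here.

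Some genes that steer fuel choice fell and others rose. PDK4 and PDK2, kinases that switch pyruvate dehydrogenase off, fell by 1.95 ± 0.36 (adjusted p = 0.000385) and 2.06 ± 0.16 (adjusted p = 1.76e-07), and PDP1, the phosphatase that switches it on, rose by 1.85 ± 0.21 (adjusted p = 4.83e-06). PDK4 lay between 1134 and 5402 CPM at D1, with a median of 2586, and between 486 and 963 CPM at D21, with a median of 737, the widest spread of the 3 at D1, yet with no overlap. ME1, the malic enzyme that supplies NADPH for lipid synthesis, ranged from 2.95 to 6.36 CPM (median 4.43) at D1 and from 146 to 227 CPM (median 196) at D21, a 43.2-fold rise without overlap (log2 fold change 5.43 ± 0.21, adjusted p = 9.50e-10). Within the fatty acid list, UCP3, a mitochondrial carrier of muscle, rose by 2.42 ± 0.23 (adjusted p = 1.12e-06), and EHHADH, a peroxisomal oxidation enzyme, by 2.05 ± 0.30 (adjusted p = 6.29e-05).

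**Figure D2:**
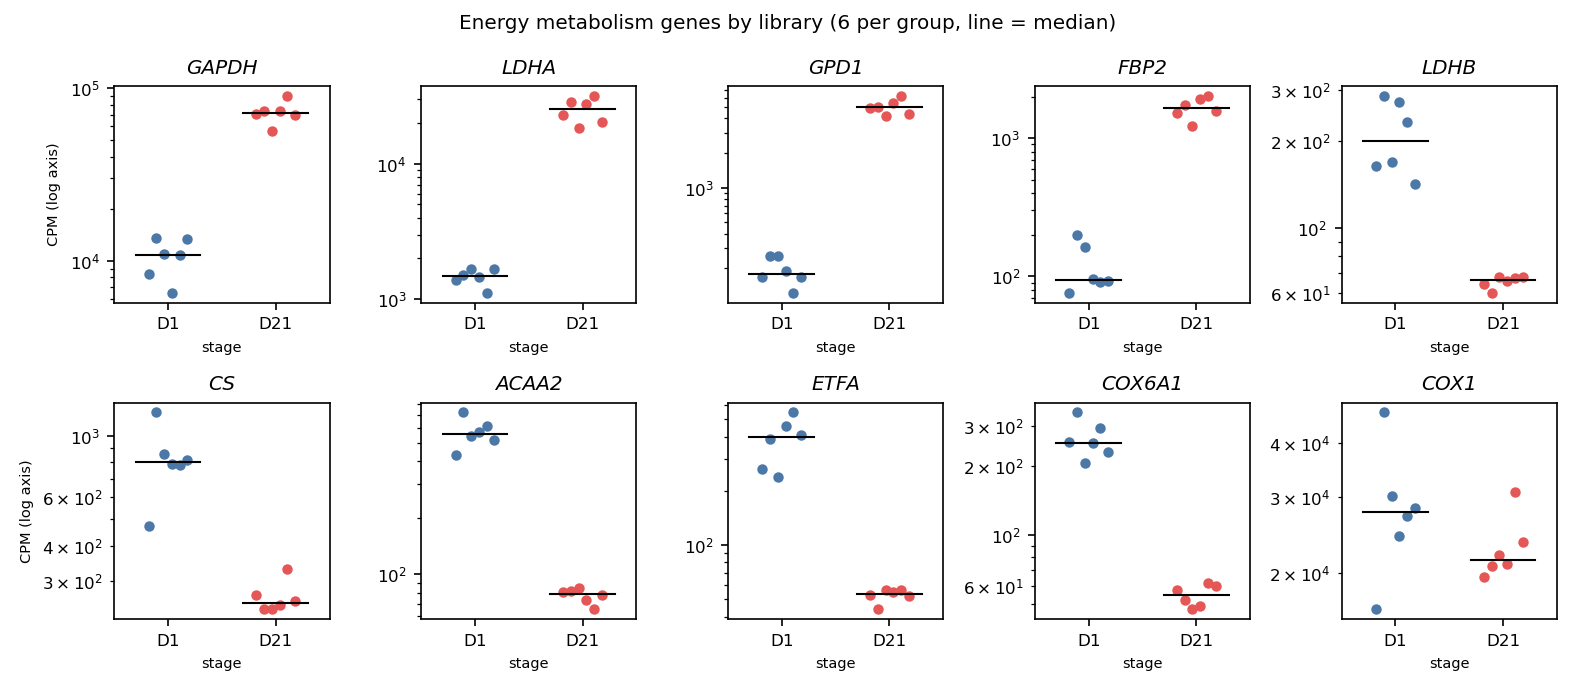
Each panel plots 1 gene's CPM (vertical, log axis) in the 6 D1 and 6 D21 libraries, with a line at the median. GAPDH, LDHA, GPD1 and FBP2 are higher in every D21 library, LDHB, CS, ACAA2, ETFA and COX6A1 are lower in every D21 library, and the mitochondrially encoded COX1 overlaps.

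Sterol synthesis genes rose as a group in number: 16 of 23 rose and 4 fell (median 1.08). INSIG1, which holds back the sterol-sensing machinery and is itself induced by it, was at 2.66 to 7.798 CPM at D1 (median 4.62) and at 57.6 to 139.6 CPM at D21 (median 68.97). SC5D, a late enzyme of cholesterol synthesis, lay between 10.2 and 14.5 CPM at D1, with a median of 11.97, and between 50.4 and 101 CPM at D21, with a median of 56.7. Both were higher in every D21 library (log2 fold change 4.15 ± 0.30, adjusted p = 9.59e-08 and log2 fold change 2.37 ± 0.17, adjusted p = 8.14e-08, respectively). MVK, mevalonate kinase, and SCAP, the escort of the sterol-responsive transcription factors, were lower in every D21 library (log2 fold change -0.92 ± 0.13, adjusted p = 5.05e-05 and log2 fold change -0.69 ± 0.10, adjusted p = 5.16e-05, respectively).

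Fat cell and lipid storage genes were mixed, with 12 rises and 8 falls among 28 tested under TMM and 8 rises and 10 falls with total counts. PLIN1, the coat protein of fat droplets in adipocytes, ranged from 0 to 11.3 CPM (median 3.03) at D1 and from 8.69 to 68.1 CPM (median 22.7) at D21, overlapping at the edge (log2 fold change 2.90 ± 0.91, adjusted p = 0.0146). FABP4, the adipocyte fatty acid binding protein, also rose (log2 fold change 2.33 ± 0.59, adjusted p = 0.00385), and so did SCD, which desaturates newly made fatty acids (log2 fold change 2.76 ± 0.51, adjusted p = 0.000404). The falls with the largest fold change in this list were G0S2, an inhibitor of lipolysis, which was at 177 to 396 CPM at D1 (median 317) and at 10.7 to 27.3 CPM at D21 (median 19.04), and AGPAT2, an enzyme of triglyceride synthesis. The groups were apart for both (log2 fold change -3.85 ± 0.28, adjusted p = 8.70e-08 and log2 fold change -2.84 ± 0.15, adjusted p = 6.61e-09, respectively). Of 10 adipocyte markers 6 rose and 3 fell, or 3 and 3 with total counts, and their summed level was 455 to 693 CPM at D1 and 388 to 522 CPM at D21; their part in these results was not tested.

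Most fast contractile genes rose. Of 13 fast contractile genes 9 rose and 1 fell (median 1.15), and their summed level was 38242 to 68685 CPM at D1 and 96951 to 157800.3 CPM at D21. TNNI2, the fast troponin I, lay between 2346 and 5209 CPM at D1, with a median of 3309.9, and between 6461 and 10684 CPM at D21, with a median of 9108; MYL1, the fast essential light chain, and TPM1, tropomyosin of fast fibres, were likewise higher in every D21 library, by 1.15 ± 0.21 (adjusted p = 0.000361) and 1.49 ± 0.19 (adjusted p = 2.03e-05), against 1.32 ± 0.20 for TNNI2 (adjusted p = 6.59e-05). TNNC2, the fast troponin C, overlapped and was not called (log2 fold change 0.27 ± 0.17, adjusted p = 0.185).

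The fast myosin heavy chains of the bird lie in a tandem cluster of closely similar genes, so that reads may be divided between copies and the single values are uncertain. MYH1B (chromosome 18, 1119963 to 1138129 on GRCg7b) ranged from 7892 to 18795 CPM (median 10603) at D1 and from 33063 to 52609 CPM (median 35401) at D21. MYH1C (same chromosome, 1229272 to 1246601) was at 5112 to 16204 CPM at D1 (median 11259.9) and at 2039 to 2971 CPM at D21 (median 2200.5). The groups were apart for both, MYH1B being higher at D21 (log2 fold change 1.67 ± 0.25, adjusted p = 7.31e-05) and MYH1C lower (log2 fold change -2.23 ± 0.28, adjusted p = 1.37e-05).

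Slow contractile genes mostly fell: 10 of 13 were lower and 2 higher at D21 (median -3.85). The summed level of the list did not follow that count. It was 3108 to 10582 CPM at D1 and 6412 to 8851 CPM at D21, the 4 D1 libraries other than 4 and 5 all lying below the D21 range, and at D21 the larger part of the sum was CASQ2 and TNNC1, which rose. D1 libraries 4 and 5 stood apart in this list. MYL3, the slow ventricular light chain, was at 641 and 252 CPM in those libraries and at 3.16 to 8.9995 CPM in the other 4 at D1, against 0 to 0.119 CPM at D21 (log2 fold change -12.51 ± 2.07, adjusted p = 0.000153). TNNI1, the slow troponin I, was at 453 and 189 CPM there and at 3.75 to 7.796 CPM in the other 4, and its groups overlapped, since D21 ran from 1.36 to 5.49 CPM. The same libraries held 764 and 478 CPM of ATP2A2, the calcium pump of slow and cardiac muscle, where the other 4 held 84.3 to 96.9.

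Without D1 libraries 4 and 5, a setting chosen after seeing the data, 8 of the 13 slow genes fell and the median was -2.23. The log2 fold change of MYL3 went from -12.51 ± 2.07 to -7.69 ± 0.72, that of TNNI1 from -5.32 ± 1.23 to -1.06 ± 0.34 (adjusted p = 0.01996) and that of ATP2A2 from -1.87 ± 0.53 (adjusted p = 0.00812) to -0.33 ± 0.10 (adjusted p = 0.0205). CSRP3, the muscle LIM protein, lost its call (-5.07 ± 1.28 with all libraries, adjusted p = 0.003804, and -2.23 ± 1.02 without them, adjusted p = 0.0859). The direction of each was the same in both fits. Without D1 library 4 alone the values were -11.03 for MYL3, -3.94 for TNNI1, -1.20 for ATP2A2 and -4.19 for CSRP3. MYL3 was also near 0 throughout D21, where library 2 was the highest at 0.119 CPM. Without D21 library 2 its fold change was -14.59. CSRP3 was highest at D21 in library 4, and without that library its fold change was -7.44.

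MYL2, the slow regulatory light chain, had 1.29 to 43.5 CPM at D1 and no count in any D21 library. Against a floor of 3 counts over the D21 group it was at least 1120-fold lower, or at least 171-fold lower without D1 libraries 4 and 5, where it was highest. Its fitted log2 fold change of -12.40, which is no bound, became -11.23 without D1 library 4 and -9.69 ± 0.77 without both, still called. The median of the slow list, -3.85, could not differ with MYL2 at the first bound, since both values of MYL2 lie below it. Both bounds take each deposited count as 1 read. That was not checked, and 32.87% of the values between 1 and 20 were multiples of 4. PLN, phospholamban, the brake on the slow calcium pump, lay between 30.4 and 248 CPM at D1, with a median of 74.7, and between 1.37 and 7.86 CPM at D21, with a median of 3.83 (log2 fold change -4.81 ± 0.60, adjusted p = 1.39e-05). MYBPC1, the slow myosin binding protein C, ranged from 991 to 3948 CPM (median 1489) at D1 and from 22.1 to 422 CPM (median 75.2) at D21 (log2 fold change -3.60 ± 0.74, adjusted p = 0.000903). Both were apart between groups, and without D1 libraries 4 and 5 their fold changes were -3.80 ± 0.44 and -2.94 ± 0.74.

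A pair of genes in the slow list rose. TNNC1, the troponin C shared by slow and cardiac muscle, was at 34.7 to 377 CPM at D1 (median 49.7) and at 2107 to 3695 CPM at D21 (median 2950.5), with library 4 the highest at D1 and no overlap (log2 fold change 4.60 ± 0.60, adjusted p = 2.03e-05, or 5.42 without D1 library 4 and 6.04 ± 0.24 without D1 libraries 4 and 5). CASQ2, the cardiac calsequestrin that stores calcium, lay between 1714 and 2719 CPM at D1, with a median of 2025, and between 3469.8 and 5356 CPM at D21, with a median of 4196, also without overlap (log2 fold change 1.04 ± 0.15, adjusted p = 5.42e-05). Its skeletal partner CASQ1 ranged from 80.4 to 227 CPM (median 169) at D1 and from 82.7 to 132 CPM (median 108) at D21, overlapped and was not called (log2 fold change -0.54 ± 0.24, adjusted p = 0.0729), although with total counts it was lower (-0.86, adjusted p = 0.00528).

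**Figure D3:**
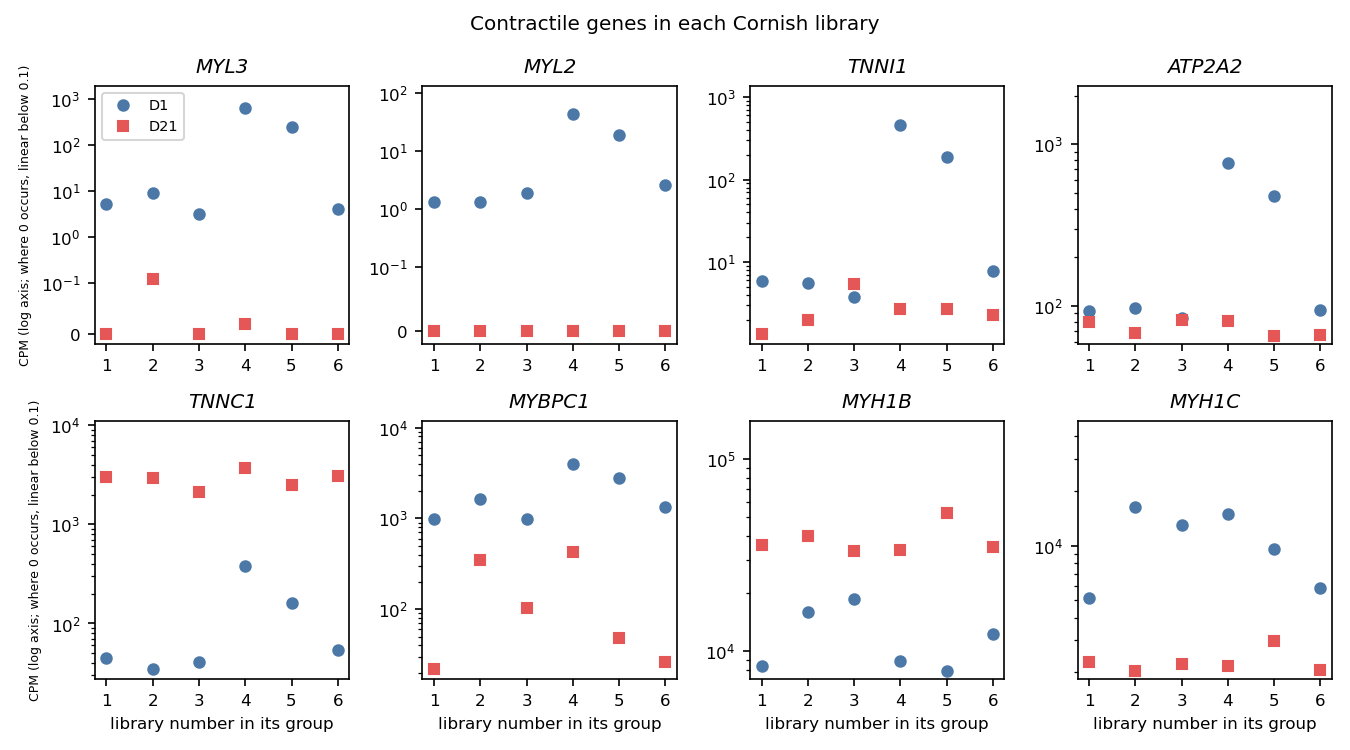
CPM of 8 contractile genes (vertical, log axis, linear below 0.1 where a 0 occurs) against the library number within each age group, with circles for D1 and squares for D21. D1 libraries 4 and 5 lie above the other D1 libraries in MYL3, MYL2, TNNI1, ATP2A2, TNNC1 and MYBPC1, and library numbers do not pair the ages.

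Among genes typical of embryonic or cardiac muscle 7 of 11 rose and 1 fell (median 0.82). ACTC1, cardiac actin, was at 191 to 1102 CPM at D1 (median 428) and at 714 to 4877 CPM at D21 (median 1632), with overlapping groups (log2 fold change 2.06 ± 0.47, adjusted p = 0.001999). ACTA2, smooth muscle actin, was higher in every D21 library (log2 fold change 1.91 ± 0.28, adjusted p = 4.93e-05), while 9 of 14 smooth muscle and pericyte markers rose, 2 fell and their summed level was 2509 to 4144 CPM at D1 and 6075 to 7803 CPM at D21. ACTA2 is in both lists, and the part of vessel-wall cells was not tested. NES, nestin, an intermediate filament of immature fibres, fell (log2 fold change -1.77 ± 0.22, adjusted p = 1.04e-05).

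TNNT2, the embryonic and cardiac troponin T, showed no call (log2 fold change -0.21 ± 0.67, adjusted p = 0.806), with D1 library 4 at 48.3 CPM against a D1 median of 6.17; without D1 libraries 4 and 5 it was called higher (1.38 ± 0.52, adjusted p = 0.04196). Scaffold proteins of the sarcomere were divided, 10 of 24 rising and 6 falling under TMM, and 9 and 8 with total counts. TCAP, the titin cap of the Z-disc, lay between 24.5 and 100.02 CPM at D1, with a median of 60.2, and between 440.2 and 995 CPM at D21, with a median of 722, and LMOD2, a leiomodin that lengthens thin filaments, ranged from 82.2 to 319 CPM (median 204) at D1 and from 0.537 to 4.81 CPM (median 2.08) at D21. The groups were far apart in each, in opposite directions (log2 fold change 3.54 ± 0.33, adjusted p = 8.67e-07 and log2 fold change -6.42 ± 0.49, adjusted p = 1.49e-07, respectively). MYOM3, an M-band protein, fell (log2 fold change -4.32 ± 0.74, adjusted p = 0.000193, or -3.60 without D1 library 4 and -2.99 ± 0.54 without D1 libraries 4 and 5). Calcium handling genes were as divided, with 8 rises and 9 falls among 28, near the shares of all genes tested (27.4% and 28.5%). With total counts 6 rose and 13 fell. CACNA1S, the voltage sensor of excitation and contraction, was lower with overlap (log2 fold change -0.90 ± 0.19, adjusted p = 0.000906).

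Growth signalling genes fell more often than they rose, 23 against 11 of 46 tested (median -0.34). MSTN, myostatin, the secreted brake on muscle growth, was at 4.74 to 13.9 CPM at D1 (median 8.57) and at 31.2 to 77.6 CPM at D21 (median 50.4). IGF1, the growth factor that drives fibre enlargement, lay between 0.253 and 1.61 CPM at D1, with a median of 1.05, and between 2.33 and 6.299 CPM at D21, with a median of 3.69. Both were higher in every D21 library (log2 fold change 2.62 ± 0.28, adjusted p = 3.82e-06 and log2 fold change 2.13 ± 0.44, adjusted p = 0.000916, respectively). IGF2 ranged from 11.3 to 22.2 CPM (median 16.6) at D1 and from 11.04 to 22.3 CPM (median 16.1) at D21, which is nearly the same range at both ages (log2 fold change 0.00 ± 0.19, adjusted p = 0.999).

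The extracellular antagonists of myostatin described here were picked for their falls or after their values were seen, and stand for no wider class. WFIKKN1, which binds myostatin in mammals, was at 3.97 to 29.9 CPM at D1 (median 12.8) and at 0 to 0.204 CPM at D21 (median 0.0793). Its fold change therefore rests on low values at D21. FSTL3, a follistatin-like inhibitor, lay between 30.2 and 52.3 CPM at D1, with a median of 42.9, and between 3.43 and 7.81 CPM at D21, with a median of 4.34, and FST, follistatin itself, ranged from 61.6 to 184 CPM (median 95.4) at D1 and from 22.04 to 58.7 CPM (median 33.99) at D21. In all 3 no D21 library reached the lowest D1 library (log2 fold change -7.35 ± 0.63, adjusted p = 4.12e-07, log2 fold change -3.03 ± 0.22, adjusted p = 1.14e-07 and log2 fold change -1.47 ± 0.30, adjusted p = 0.000771, respectively). The receptor ACVR2B, through which myostatin acts, also fell (log2 fold change -2.56 ± 0.24, adjusted p = 8.03e-07).

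Downstream, PIK3R1, the regulatory subunit of PI3 kinase, fell by 2.45 ± 0.16 (adjusted p = 3.02e-08) and EIF4EBP1, the translation repressor that mTOR inactivates, by 0.99 ± 0.15 (adjusted p = 6.68e-05). FOXO1, the transcription factor held back by that pathway, was at 34.97 to 50.3 CPM at D1 (median 37.7) and at 57.3 to 151 CPM at D21 (median 95.97), without overlap (log2 fold change 1.28 ± 0.20, adjusted p = 0.000115). GHR, the growth hormone receptor, lay between 135 and 195 CPM at D1, with a median of 167, and between 114 and 166 CPM at D21, with a median of 141. Its groups overlapped and it was not called (log2 fold change -0.22 ± 0.12, adjusted p = 0.115), but it was called lower with total counts (-0.54, adjusted p = 0.00168).

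Of 35 myogenic regulators 6 rose and 16 fell (median -0.26). Of the 4 classical bHLH factors, MYF5, active in satellite cells and myoblasts, fell (log2 fold change -1.20 ± 0.17, adjusted p = 3.84e-05), MYOG, which drives fusion and differentiation, rose (log2 fold change 1.79 ± 0.25, adjusted p = 3.69e-05), and MYOD1 (log2 fold change -0.26 ± 0.28, adjusted p = 0.451) and MYF6 (log2 fold change 0.15 ± 0.14, adjusted p = 0.383) were not called. MYF5 ranged from 34.9 to 69.7 CPM (median 37.3) at D1 and from 16.3 to 23.2 CPM (median 18.5) at D21, and MYOG was at 3.77 to 11.7 CPM at D1 (median 7.51) and at 17.4 to 35.9 CPM at D21 (median 26.6). Neither pair of groups overlapped. PAX7, the defining factor of satellite cells, lay between 29.1 and 39.96 CPM at D1, with a median of 35.8, and between 14.9 and 32.8 CPM at D21, with a median of 22.7, with overlap (log2 fold change -0.56 ± 0.17, adjusted p = 0.0113). EYA1, a cofactor of homeobox factors, ranged from 177 to 239 CPM (median 193) at D1 and from 7.26 to 22.1 CPM (median 13.2) at D21, without overlap (log2 fold change -3.82 ± 0.23, adjusted p = 1.93e-08). MEF2B, of the MEF2 family of muscle transcription factors, rose (log2 fold change 2.94 ± 0.25, adjusted p = 3.89e-07).

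Satellite cell markers fell in 6 of 10 cases and rose in 2, with a summed level of 368 to 497 CPM at D1 and 249 to 346 CPM at D21. SDC4, a syndecan of satellite cells, fell (log2 fold change -1.22 ± 0.13, adjusted p = 2.62e-06), and VCAM1, which satellite cells share with endothelium, rose (log2 fold change 1.63 ± 0.28, adjusted p = 0.000216). In bulk tissue, fewer cells of a type and less RNA of that type per unit of muscle cannot be told apart, here and in the cell type lists below.

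Cell division genes were divided, 13 of 79 rising and 16 falling (median 0.26), both below the shares of all genes tested (27.4% and 28.5%). With total counts 1 rose and 22 fell (median -0.13). The balance turned the other way without D1 libraries 4 and 5, where 14 rose and 10 fell (median 0.47), and with the replicate block, where 17 rose and 11 fell (median 0.48). CCND3, a D-type cyclin also linked to myoblast differentiation, was at 17.2 to 21.4 CPM at D1 (median 17.9) and at 33.4 to 51.2 CPM at D21 (median 37.6), without overlap (log2 fold change 1.07 ± 0.11, adjusted p = 2.81e-06). MCM3, a subunit of the replication helicase, lay between 4.39 and 27.5 CPM at D1, with a median of 21.2, and between 6.24 and 11.4 CPM at D21, with a median of 8.09 and overlapped (log2 fold change -1.14 ± 0.32, adjusted p = 0.007701). CDCA7 likewise fell with overlap (log2 fold change -0.94 ± 0.24, adjusted p = 0.00376). The summed level of the list was 724 to 1744 CPM at D1 and 1044 to 1378 CPM at D21, D1 library 2 being the lowest.

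Genes of the neuromuscular junction fell: 12 of 18 were lower at D21 and none rose (median -0.94). COLQ, the collagen tail that anchors acetylcholinesterase at the synapse, ranged from 42.95 to 111 CPM (median 54.6) at D1 and from 0.932 to 3.72 CPM (median 2.08) at D21. RAPSN, which clusters acetylcholine receptors, was at 46.9 to 78.7 CPM at D1 (median 70.7) and at 17.3 to 32.01 CPM at D21 (median 22.6), and NCAM1, the neural cell adhesion molecule of immature and denervated fibres, lay between 307 and 479.99 CPM at D1, with a median of 405, and between 119 and 156 CPM at D21, with a median of 139. The 3 were lower in every D21 library (log2 fold change -4.80 ± 0.37, adjusted p = 1.62e-07, log2 fold change -1.49 ± 0.18, adjusted p = 8.94e-06 and log2 fold change -1.52 ± 0.12, adjusted p = 2.01e-07, respectively). ERBB3, a neuregulin receptor of Schwann cells and muscle, fell too (log2 fold change -2.96 ± 0.26, adjusted p = 6.17e-07).

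Schwann cells wrap the motor axons, and 11 of 14 of their markers fell, 1 rose, and the median was -2.40. Their summed level was 839.6 to 1643 CPM at D1 and 251 to 351 CPM at D21. SOX10, the factor that defines the lineage, ranged from 17.1 to 32.1 CPM (median 23.5) at D1 and from 1.19 to 4.14 CPM (median 2.76) at D21, and FOXD3, an early neural crest and glial factor, was at 95.2 to 213 CPM at D1 (median 118) and at 4.87 to 13.8 CPM at D21 (median 7.64). No D21 library reached the D1 range for either of them (log2 fold change -3.14 ± 0.27, adjusted p = 4.36e-07 and log2 fold change -4.01 ± 0.25, adjusted p = 2.94e-08, respectively). ERBB3 stands in both lists, and the part of glial cells in the junction result was not tested.

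Paralogues moved in opposite directions in the large ribosomal subunit. RPL3L, the form of ribosomal protein L3 made in striated muscle (chromosome 14, 6135330 to 6142706), lay between 2.51 and 16.9 CPM at D1, with a median of 7.25, and between 693 and 1238 CPM at D21, with a median of 794. RPL3, the general form (chromosome 1, 50730828 to 50736632), ranged from 1339 to 1840.5 CPM (median 1511) at D1 and from 413 to 605 CPM (median 485) at D21. RPL3L rose 102-fold and RPL3 fell 3.18-fold, with the groups apart in both (log2 fold change 6.68 ± 0.47, adjusted p = 6.63e-08 and log2 fold change -1.67 ± 0.13, adjusted p = 1.55e-07, respectively). Of 63 in the list 6 rose and 19 fell (median -0.23), and with total counts 4 rose and 48 fell. With TMM and all libraries the falls were near the share of all genes tested (28.5%) and the rises below it (27.4%). Without D1 libraries 4 and 5 6 rose and 11 fell. RPS27L, a paralogue of RPS27 that p53 induces in mammals, rose (log2 fold change 2.73 ± 0.19, adjusted p = 7.70e-08), and RPL5, which carries a small ribosomal RNA into the ribosome, fell (log2 fold change -0.74 ± 0.13, adjusted p = 0.000275).

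Translation factors had 12 rises and 19 falls among 46 (median -0.19), or 6 and 30 with total counts (median -0.52). EIF5, which starts the release of initiation factors at the start codon, rose (log2 fold change 1.29 ± 0.14, adjusted p = 4.04e-06) and EIF3M, a subunit of the scaffold factor of initiation, fell (log2 fold change -0.98 ± 0.10, adjusted p = 1.91e-06), both without overlap. Of the elongation factors that bring aminoacyl-tRNA, EEF1A1, the general form, was not called (log2 fold change -0.26 ± 0.14, adjusted p = 0.135), although it was lower with total counts (-0.60, adjusted p = 0.00318). EEF1A2, the muscle and neuron form, was called lower close to the threshold (log2 fold change -0.47 ± 0.19, adjusted p = 0.0442). That call was lost in 13 of the alternatives.

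Most genes of the proteasome, which degrades tagged proteins, rose, with 26 of 34 genes higher and 3 lower (median 0.52), or 14 and 6 with total counts. PSME4, an activator of the proteasome, was at 55.8 to 80.8 CPM at D1 (median 63.6) and at 161 to 329 CPM at D21 (median 245), and PSMD4, its ubiquitin receptor, lay between 70.4 and 104 CPM at D1, with a median of 82.1, and between 191 and 269.6 CPM at D21, with a median of 199, each without overlap (log2 fold change 1.87 ± 0.17, adjusted p = 6.81e-07 and log2 fold change 1.33 ± 0.12, adjusted p = 6.71e-07, respectively). Among atrophy and autophagy genes 12 of 32 rose and 6 fell, a balance that turned to 7 and 12 with total counts. CAPN2, a calcium-activated protease, and CTSD, a lysosomal protease, rose (log2 fold change 2.29 ± 0.19, adjusted p = 3.27e-07 and log2 fold change 1.64 ± 0.22, adjusted p = 2.18e-05, respectively), and SESN2, a stress-induced inhibitor of mTOR signalling, fell (log2 fold change -1.45 ± 0.18, adjusted p = 9.65e-06). Chaperones were divided, 13 of 57 rising and 14 falling, both below the shares of all genes tested (27.4% and 28.5%). With total counts 8 rose and 29 fell. DNAJB2, a cochaperone of HSP70, rose without overlap (log2 fold change 2.17 ± 0.16, adjusted p = 8.45e-08) and DNAJA4, of the same family, fell without overlap (log2 fold change -2.26 ± 0.20, adjusted p = 5.40e-07). HSPB7, a small heat shock protein of heart and muscle, fell (log2 fold change -3.54 ± 0.54, adjusted p = 8.02e-05), 1 D1 library lying at 11.1 CPM against a D1 median of 176. HSPB9, of the same family, rose by 2.70 ± 0.49 (adjusted p = 0.000324), and by 2.08 without D21 library 6.

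Most immune genes rose. Leukocyte markers rose in 27 of 28 cases and none fell (median 2.75), and their summed level was 96.3 to 204 CPM at D1 and 1251 to 1959.8 CPM at D21. PTPRC (CD45), carried by all white blood cells, ranged from 3.04 to 5.63 CPM (median 3.63) at D1 and from 21.3 to 39.01 CPM (median 29.03) at D21. CSF1R, the growth factor receptor of macrophages, was at 21.9 to 73.1 CPM at D1 (median 48.9) and at 164 to 293 CPM at D21 (median 235). Both were higher in every D21 library (log2 fold change 2.91 ± 0.19, adjusted p = 4.02e-08 and log2 fold change 2.24 ± 0.24, adjusted p = 3.78e-06, respectively). All 20 antigen presentation genes rose (median 2.61). CD74, the invariant chain that escorts class II molecules and is also in the leukocyte list, lay between 14.6 and 41.03 CPM at D1, with a median of 22.7, and between 583 and 1003 CPM at D21, with a median of 834, a 32.4-fold rise (log2 fold change 5.02 ± 0.25, adjusted p = 4.06e-09).

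The gene with the largest rise under the naming rule was IGLL1, annotated as an immunoglobulin light chain-like gene (chromosome 15, 7933262 to 7955461). It ranged from 0 to 0.133 CPM (median 0.0265) at D1 and from 108 to 378 CPM (median 272) at D21. JCHAIN, which links antibody chains into polymers in plasma cells, was at 0 to 0.174 CPM at D1 (median 0.0481) and at 20.7 to 78.2 CPM at D21 (median 47.9). The D1 libraries held next to no counts of either, so that the fold changes rest on low values (log2 fold change 12.47 ± 0.60, adjusted p = 2.90e-09 and log2 fold change 9.50 ± 0.57, adjusted p = 1.93e-08, respectively); without D1 library 5 that of IGLL1 was 13.13. How much of the immune rise follows from the number of white blood cells in the tissue was not tested.

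Of 28 interferon response genes 24 rose and none fell (median 1.47). MX1, an antiviral GTPase, lay between 0 and 0.199 CPM at D1, with a median of 0, and between 9.18 and 69.9 CPM at D21, with a median of 20.3. IFIT5, which binds viral RNA, ranged from 0.252 to 0.556 CPM (median 0.377) at D1 and from 10.6 to 117 CPM (median 31.5) at D21, and CMPK2, an interferon-induced nucleotide kinase, was at 0.08303 to 0.624 CPM at D1 (median 0.313) and at 6.62 to 46.8 CPM at D21 (median 15.1). Every D21 library was above every D1 library (log2 fold change 9.11 ± 0.88, adjusted p = 1.24e-06, log2 fold change 6.76 ± 0.62, adjusted p = 7.86e-07 and log2 fold change 5.80 ± 0.56, adjusted p = 1.32e-06, respectively), and D21 libraries differed among themselves. Libraries 3 and 4 at D21 held the highest MX1, 69.9 and 60.5 CPM. The fold change of MX1 rests on low values at D1. It was 9.92 without D1 library 5, and that of IFIT5 was 6.16 without D21 library 3. The chemokine CCL26 rose (log2 fold change 5.15 ± 0.61, adjusted p = 8.71e-06), with 58.3 CPM in D21 library 4 and 13.8 CPM or less in the others; without that library the value was 4.28.

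**Figure D4:**
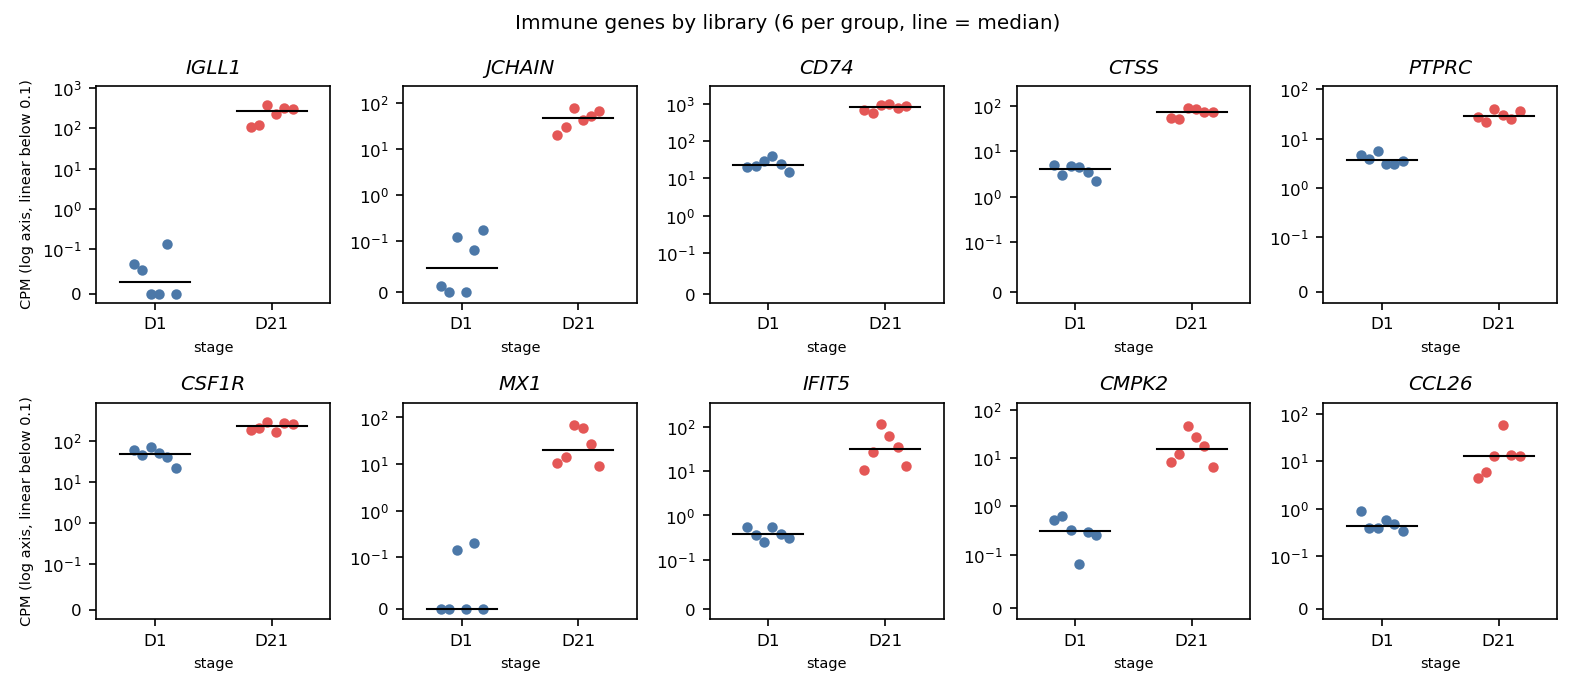
CPM of 10 immune genes (vertical, log axis, linear below 0.1) in the 6 D1 and 6 D21 libraries, with a line at the median. All D21 values lie above all D1 values in each panel, and the interferon genes MX1, IFIT5 and CMPK2 spread more widely at D21 than PTPRC, CD74 and CTSS.

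Other cell type lists moved as follows. Red blood cell markers fell in 6 of 12 cases and rose in none (median -0.78), or fell in 10 with total counts, with a summed level of 1046 to 2064 CPM at D1 and 599.8 to 1102 CPM at D21. HBE1, an embryonic haemoglobin chain, lay between 4.41 and 11.2 CPM at D1, with a median of 7.21, and between 0.812 and 5.81 CPM at D21, with a median of 2.402 (log2 fold change -1.42 ± 0.38, adjusted p = 0.00592). Endothelial markers rose in 9 of 25 cases and fell in 2 under TMM, but 2 rose and 8 fell with total counts, and 6 rose and 6 fell without D1 libraries 4 and 5. LYVE1, a marker of lymphatic vessels and some macrophages, rose (log2 fold change 1.97 ± 0.46, adjusted p = 0.00231).

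Matrix genes of connective tissue rose in 17 of 39 cases and fell in 5 (median 0.58), or 15 and 8 with total counts. TNC, tenascin C, a matrix protein of growing and loaded tissue, ranged from 2.203 to 14.4 CPM (median 6.86) at D1 and from 54.9 to 338 CPM (median 136) at D21. COL8A1, a short-chain collagen, was at 5.77 to 19.1 CPM at D1 (median 11.1) and at 106 to 227 CPM at D21 (median 132). Each was higher in every D21 library (log2 fold change 4.36 ± 0.49, adjusted p = 4.80e-06 and log2 fold change 3.62 ± 0.31, adjusted p = 4.71e-07, respectively). COL11A1, a fibril collagen of cartilage and embryonic tissue, fell (log2 fold change -4.25 ± 0.89, adjusted p = 0.000959), but D1 library 3 held 477 CPM against a D1 median of 41.01, and without it the value was -2.95. THBS2, a thrombospondin of fibroblasts, fell with overlap (log2 fold change -2.20 ± 0.35, adjusted p = 0.000114). Fibroblast markers rose in 5 and fell in 2 of 13 cases, with summed levels of 5559 to 27419 CPM at D1 and 12131 to 25322 CPM at D21.

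D1 library 3 also held the most of TNMD, tenomodulin, the defining gene of tendon (164 CPM, against 52.2 CPM or less in the others at D1), and of COMP, a cartilage and tendon matrix protein (365 CPM, against 97.1 or less). COMP was higher at D21 (log2 fold change 2.45 ± 0.59, adjusted p = 0.00274, or 3.50 without D1 library 3) and TNMD was not called (log2 fold change -1.34 ± 0.84, adjusted p = 0.189). Of 15 tendon and cartilage markers 3 rose and 4 fell, or 4 and 2 without D1 libraries 4 and 5. With all libraries the rises were below the share of all genes tested (27.4%) and the falls near it (28.5%). The summed levels of these markers were 154 to 748 CPM at D1 and 591 to 1098 CPM at D21. The part of tendon in the matrix result was not tested.

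Collagen-processing genes and proteases had 10 rises and 7 falls among 36, or 7 and 11 with total counts and 10 and 3 without D1 libraries 4 and 5. With TMM and all libraries the rises were near the share of all genes tested (27.4%) and the falls below it (28.5%). TIMP2, an inhibitor of matrix metalloproteases, rose without overlap (log2 fold change 1.88 ± 0.14, adjusted p = 1.62e-07). Basement membrane genes had 12 and 11 among 33, or 4 and 17 with total counts. COL18A1, the source of endostatin, and ITGA7, the laminin receptor of muscle fibres, rose (log2 fold change 1.76 ± 0.22, adjusted p = 1.41e-05 and log2 fold change 1.70 ± 0.22, adjusted p = 1.91e-05, respectively), while COL4A6, a chain of basement membrane collagen, and DTNA, alpha-dystrobrevin of the dystrophin complex, fell (log2 fold change -2.18 ± 0.15, adjusted p = 7.36e-08 and log2 fold change -2.20 ± 0.14, adjusted p = 2.68e-08, respectively). The groups were apart for all 4.

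Clock genes, which follow the hour of sampling as well as age, had 7 rises and 8 falls among 20. Immediate early genes, which respond to handling and activity within minutes, had 6 and 8 among 28, or 3 and 11 with total counts. Under TMM the immediate early rises were below the share of all genes tested (27.4%) and the falls near it (28.5%). PER3, a period gene, rose (log2 fold change 2.09 ± 0.25, adjusted p = 7.83e-06) and NFIL3, a repressor in the clock output, fell (log2 fold change -1.49 ± 0.15, adjusted p = 1.47e-06). NR4A1, an exercise-responsive nuclear receptor, lay between 58.6 and 128 CPM at D1, with a median of 83.2, and between 397 and 629 CPM at D21, with a median of 456, without overlap (log2 fold change 2.40 ± 0.21, adjusted p = 4.04e-07). SOCS3, an inhibitor of cytokine signalling, fell (log2 fold change -2.41 ± 0.20, adjusted p = 3.17e-07). The hour of sampling is not given in the labels.

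Further genes with the largest changes came from no list. SLC7A5, the large neutral amino acid transporter that supplies leucine to mTOR, ranged from 5.72 to 12.99 CPM (median 10.02) at D1 and from 432 to 809 CPM (median 503) at D21, and ANKRD9, an ankyrin repeat protein, was at 3.91 to 15.2 CPM at D1 (median 9.31) and at 203 to 634 CPM at D21 (median 282). AMPH, amphiphysin, a protein of membrane tubules, lay between 0 and 0.239 CPM at D1, with a median of 0.0529, and between 3.09 and 46.5 CPM at D21, with a median of 9.58. All 3 were higher in every D21 library (log2 fold change 5.92 ± 0.27, adjusted p = 2.14e-09, log2 fold change 5.19 ± 0.41, adjusted p = 1.87e-07 and log2 fold change 7.20 ± 0.89, adjusted p = 1.23e-05, respectively). The fold change of AMPH rests on low values at D1. Its highest D21 library was 5, and without that library the value was 6.38.

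Among the falls, C8orf22 (chromosome 2, 108165656 to 108168794) ranged from 296 to 937 CPM (median 466) at D1 and from 0.342 to 1.49 CPM (median 0.753) at D21. STK17A, a serine/threonine kinase, was at 133 to 339 CPM at D1 (median 183) and at 1.45 to 2.65 CPM at D21 (median 1.83). CBS, cystathionine beta-synthase, which turns homocysteine towards cysteine, lay between 121 and 305 CPM at D1, with a median of 221, and between 2.698 and 4.22 CPM at D21, with a median of 3.68. None of the 3 overlapped (log2 fold change -9.33 ± 0.44, adjusted p = 2.23e-09, log2 fold change -6.81 ± 0.31, adjusted p = 2.14e-09 and log2 fold change -5.94 ± 0.28, adjusted p = 2.14e-09, respectively). TTPA, the vitamin E transfer protein, ranged from 33.4 to 160.1 CPM (median 84.7) at D1 and from 0.558 to 1.88 CPM (median 1.14) at D21 (log2 fold change -6.30 ± 0.43, adjusted p = 6.02e-08), and NRG3, a neuregulin, was at 3.96 to 35.7 CPM at D1 (median 29.02) and at 0 to 0.855 CPM at D21 (median 0.218) (log2 fold change -6.35 ± 0.74, adjusted p = 6.98e-06, or -6.95 without D21 library 5). KCNK3, a background potassium channel, fell as well (log2 fold change -5.32 ± 0.54, adjusted p = 2.03e-06). ASB18, an ankyrin repeat and SOCS box protein, lay between 0.807 and 44.6 CPM at D1, with a median of 4.69, and between 0 and 0.0997 CPM at D21, with a median of 0 (log2 fold change -8.64 ± 1.21, adjusted p = 3.60e-05), and it was among the genes highest in D1 libraries 4 and 5. The fold changes of NRG3 and ASB18 rest on low values at D21. That of ASB18 was -7.71 without D1 library 5, -6.63 ± 0.84 without D1 libraries 4 and 5, and -9.48 without D21 library 1.

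Setting the interval beside the other Cornish stages shows which of these genes had a turning point at D1 or D21. Levels here are CPM scaled over all 72 libraries, mean ± SD of 6 libraries, and no test was made. MSTN was at 135 ± 42.8 at E17, 9.23 ± 3.58 at D1, 57.5 ± 20.1 at D21 and 79.5 ± 43.4 at D42, so its level at D1 was the lowest of the 4 stages. TNNC1 was also lowest at D1, with 1673 ± 326, 126 ± 143, 3089.5 ± 569 and 2750.4 ± 488, but was highest at D21 where MSTN was highest at E17. C8orf22 was instead highest at D1, at 9.95 ± 12.2, 549 ± 263, 0.857 ± 0.414 and 1.92 ± 2.64, and STK17A likewise peaked at D1 (40.2 ± 4.25, 232 ± 99.2, 2.097 ± 0.496 and 3.37 ± 2.34).

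MYH1B peaked at D21, at 4829 ± 866, 12796 ± 4788, 41166 ± 7997 and 9310.04 ± 4360.02, with D42 close to the D1 level. ACTC1 alternated, at 3851 ± 424, 526 ± 349, 2221 ± 1577 and 492 ± 146. RPL3L climbed to a plateau (1.01 ± 0.299, 8.76 ± 5.83, 910.3 ± 214 and 1079.9 ± 529), the last pair of stages differing by less than their SDs. EYA1 was level from E17 to D1 and again from D21 to D42 (199.8 ± 16.8, 212 ± 26.7, 15.2 ± 5.68 and 14.3 ± 4.12). LDHA went from 115 ± 28.2 at E17 to 1555 ± 220.01, 26691 ± 5563 and 18606 ± 3975.

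**Figure D5:**
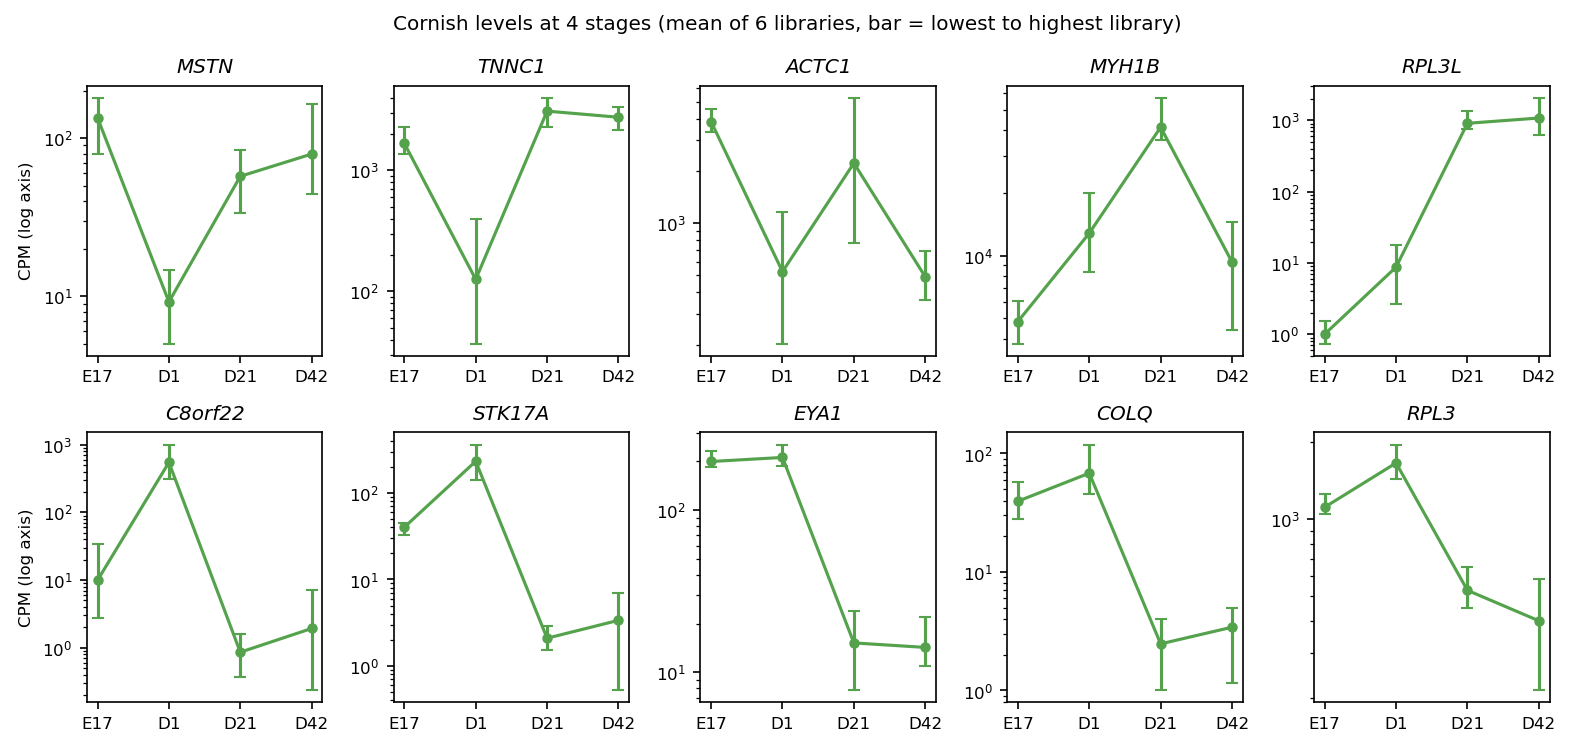
Mean CPM of 10 genes (vertical, log axis, scaled over all 72 libraries) at E17, D1, D21 and D42 in Cornish, with bars from the lowest to the highest of 6 libraries. MSTN and TNNC1 are lowest at D1, C8orf22 and STK17A are highest at D1, MYH1B is highest at D21, and EYA1, COLQ and RPL3 are lower at D21 and D42 than at E17 and D1.

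Whether the change from D1 to D21 was particular to Cornish was tested as the difference from the same change in each of the other breeds, in a fit of the 36 libraries of D1 and D21. Against White Plymouth Rock, the other purebred, 7 of 11835 genes differed (0.0591%), all at an adjusted p of 0.0494 by edgeR's quasi-likelihood test, while 1117 had an unadjusted p under 0.05. Against the crossbred none differed (0.00%), with 869 at an unadjusted p under 0.05 and 11 called by DESeq2. Total counts of the crossbred D1 libraries ran from 16673085 to 57746373. The estimated changes in Cornish and White Plymouth Rock had a Pearson r of 0.870 across genes, which are not independent replicates, and in the crossbred 0.882.

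In 6 of the 7 the Cornish change was the more positive. NMRK2, a muscle kinase that makes NAD precursors, went from 38.5 ± 9.32 to 360.3 ± 87.9 CPM in Cornish and from 78.1 ± 38.5 to 233 ± 44.2 CPM in White Plymouth Rock (SD, n = 6), a difference of changes of 1.65 ± 0.33 on the log2 scale. CTSS, a lysosomal protease of antigen-presenting cells, went from 3.94 ± 1.13 to 72.7 ± 16.3 CPM in Cornish and from 10.95 ± 1.92 to 65.1 ± 17.3 CPM in White Plymouth Rock (SD, n = 6), a difference of 1.63 ± 0.34. TMEM164 rose by 3.40 in Cornish and 1.67 in White Plymouth Rock, a difference of 1.73 ± 0.36. PHEX, an endopeptidase, fell in both breeds and by less in Cornish (-1.74 against -4.12), a difference of 2.38 ± 0.49. Outside the naming rule, and chosen after their values were seen, NR1D2, a clock repressor, differed by 1.56 ± 0.29, KIAA1217 by 1.06 ± 0.21 and GDAP1, a mitochondrial outer membrane protein, by -2.99 ± 0.61. GDAP1 was at a low level, with a mean of 1.86 CPM over the 36 libraries. With median-of-ratios scaling none of the 7 calls was made, and leaving out 1 of the 36 libraries at a time gave 0 to 21 calls, the most without White Plymouth Rock D1 library 4 (21), 5 (18) or 6 (17).

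For genes described above, the differences between breeds were not called, and their standard errors (after the ± sign) were often large. The Cornish change exceeded that of White Plymouth Rock by 0.22 ± 0.42 for LDHA, 1.02 ± 0.45 for GPD1, -0.08 ± 0.23 for CS, 0.89 ± 0.68 for RPL3L and -0.62 ± 0.51 for MSTN, all log2. Against the crossbred the values were -0.49 ± 0.42 for LDHA, 0.00 ± 0.44 for GPD1 and -0.25 ± 0.51 for MSTN. MYH1B differed from White Plymouth Rock by 1.18 ± 0.49 and IGLL1 by 4.03 ± 1.22, with adjusted p of 0.413 and 0.211 by edgeR. PER3, which rose in Cornish, changed by -0.18 in White Plymouth Rock and by -0.81 in the crossbred, neither of them called. The Cornish change exceeded these by 2.26 ± 0.59 and 2.89 ± 0.59, with adjusted p of 0.119 and 0.167 by edgeR. PER3 and NR1D2 are clock genes, and the hour of sampling is not given in the labels. Its part in their differences between breeds was not tested. Of the slow contractile genes, MYL3 was uneven at D1 in the other breeds too. It ran from 1.49 to 296.9 CPM in White Plymouth Rock and from 1.03 to 75.6 CPM in the crossbred, scaled over 72 libraries. The spread of the other slow genes in these breeds is not described here.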

How the data were processed

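RNA of breast muscle was sequenced in 72 libraries; the 12 Cornish libraries of D1 and D21 are used here, with those of the other breeds and stages for comparison. Group and replicate came from the sample titles. Reads had been processed with HISAT2 2.2.1, cutadapt 4.4 and StringTie on GRCg7b, per the submitters' processing notes. The sources used here do not give the settings, annotation or strand mode. Estimated counts per gene were deposited by the authors as 1 table of whole numbers without normalization, for 12046 genes. Multiples of 4 made up 32.87% of the values between 1 and 20, so counts divided by 4 were an alternative. The authors' tables of breed comparisons were not used. Genes carry the symbols of the table, and coordinates are RefSeq's for GRCg7b, matched by symbol (11541 matched).

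Counts were analysed with edgeR 4.0.16 in R 4.3.3: filterByExpr, TMM scaling, glmQLFit and glmQLFTest with Benjamini-Hochberg adjustment at 0.05, fitted to the 12 libraries, or to the 36 of D1 and D21 for differences between breeds. Adjusted p-values in the text come from this test. Total counts were 51730796 to 75670549 per library in the 12. In the 36 they went down to 16673085, in the crossbred D1 group. Bounds cover counting error only. The test was checked on simulated data. Alternatives were other scalings and filters, DESeq2 1.42.0, other sets of libraries, a replicate block and leaving out libraries.

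The comparison, the 39 gene lists and the named genes were chosen with earlier results of these data known. The naming rule takes genes with a mean of at least 5 CPM: the 12 largest rises and 12 largest falls without overlap, up to 2 risen and 2 fallen members of each list, fixed pairs and regulators, and up to 4 per direction for each difference between breeds. It took 174 genes, of which 133 are described, and some genes it took are not reported here. A further 17 were chosen after their values were seen: GAPDH, TPI1, FBP2, CS, COX1, CSRP3, FST, PIK3R1, NCAM1, RAPSN, SOX10, PTPRC, CSF1R, TNMD, NR1D2, KIAA1217 and GDAP1.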

Additional observations from a re-analysis of the deposited data

Results flagged for a closer look

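Each gene named in the report was checked in the 6 D1 and the 6 D21 libraries for 1 library far from the other 5 (Dixon's test at the 95% level), in 299 groups of values. It picked out 34, 12 at D1 and 22 at D21, all but those of ETFA and EIF3M on the high side. Chance alone gives about 1 in 20 where values are normally distributed, which was not checked for CPM. D21 library 5 had the lowest TMM factor, 0.768 against 0.895 to 0.976 in the other D21 libraries. A lower factor gives a higher CPM for the same share of counts. Dixon's test was not repeated without that scaling, so its part in the flags of this library was not tested. The genes share libraries, so the flagged values are not independent events.

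D21 library 5 accounted for 13 of them, each time as the highest: HK1 (681 CPM, the others 381 to 477), CS (331 CPM, the others 237 to 266), COX1 (30740.03 CPM, the others 19535 to 23515), MYH1B (52609 CPM, the others 33063 to 39579), MYH1C (2971 CPM, the others 2039 to 2286), ACTC1 (4877 CPM, the others 714 to 2226), FOXD3 (13.8 CPM, the others 4.87 to 7.82), RPL3L (1238 CPM, the others 693 to 833), RPS27L (105 CPM, the others 54.8 to 73.3), EEF1A2 (10107 CPM, the others 5866 to 7064), SC5D (101 CPM, the others 50.4 to 63.97), AMPH (46.5 CPM, the others 3.09 to 14.4), CCND3 (51.2 CPM, the others 33.4 to 39.97).

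D1 library 2 was the highest for 5 genes: COLQ (111 CPM, the others 42.95 to 68.3), FOXD3 (213 CPM, the others 95.2 to 126), EIF5 (307 CPM, the others 233 to 251), SCAP (74.6 CPM, the others 65.2 to 66.6), AGPAT2 (259.6 CPM, the others 151 to 174). D1 library 3 was the highest for 3 tendon and cartilage matrix genes: COL11A1 (477 CPM, the others 15.8 to 129), COMP (365 CPM, the others 25.05 to 97.1), TNMD (164 CPM, the others 1.22 to 52.2).

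The remaining 13 values came from other libraries. ETFA was low in D21 library 2 (43.9 CPM, the others 52.1 to 56.4). MYL3 was high in D21 library 2 (0.119 CPM, the others 0 to 0.0204). TNNI1 was high in D21 library 3 (5.49 CPM, the others 1.36 to 2.74). TNNC1 was high in D1 library 4 (377 CPM, the others 34.7 to 161). CSRP3 was high in D21 library 4 (8.84 CPM, the others 0 to 0.698). FST was high in D1 library 1 (184 CPM, the others 61.6 to 104). MYF5 was high in D1 library 6 (69.7 CPM, the others 34.9 to 46.99). VCAM1 was high in D21 library 4 (51.2 CPM, the others 24.8 to 31.5). SDC4 was high in D1 library 5 (87.1 CPM, the others 51.6 to 64.3). EIF5 was high in D21 library 4 (905 CPM, the others 501 to 605). EIF3M was low in D21 library 3 (146 CPM, the others 164 to 173). HSPB9 was high in D21 library 6 (466 CPM, the others 50.03 to 167). CCL26 was high in D21 library 4 (58.3 CPM, the others 4.53 to 13.8).

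The change from D1 to D21 differed between Cornish and White Plymouth Rock for 7 genes, by a test of the difference itself (edgeR, adjusted p = 0.0494 for each). The Cornish change minus the White Plymouth Rock change, on the log2 scale, was 1.56 for NR1D2, 1.06 for KIAA1217, 1.65 for NMRK2, 1.63 for CTSS, -2.99 for GDAP1, 2.38 for PHEX and 1.73 for TMEM164. These calls depended on the processing.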

How the results depend on the processing

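No value changed sign among the called results. Of 150 genes named in the comparison of D21 with D1, 140 had the same call in all 23 alternatives. The call of EEF1A2 was lost in 13 and those of UQCR10 and CSRP3 in 1 each. Calls were gained for CASQ1 and GHR in 3, EEF1A1 in 2, and COX1 and TNNT2 in 1 each.

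The count of 6372 called genes ranged from 5767 to 6912 over the alternatives. With total counts only, 1760 genes were higher and 5152 lower. DESeq2 called 6619. Leaving out 1 library at a time gave 6042 to 6393 calls, 2872 to 3108 higher and 3064 to 3412 lower. Without D1 libraries 4 and 5, an alternative chosen after seeing the data, 5767 genes were called, 5524 of them shared with the fit of all 12.

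Replicate numbers do not pair the samples: same-numbered D1 and D21 libraries had correlations of deviations from -0.150 to 0.0511, and no D1 library correlated best with its own number. With the replicate number as a block 6068 genes were called, TNNI1, ATP2A2 and EEF1A2 were not, and 7 of 13 slow contractile genes fell.

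The difference from White Plymouth Rock was the least stable result, with 7 calls. There were 0 calls (0 higher, 0 lower) with median-of-ratios scaling and with no filter, 12 (10 higher, 2 lower) with a mean of at least 1 CPM, 69 (39 and 30) with DESeq2 and 14 (11 and 3) with all 72 libraries. With only the 24 libraries compared, 2 were lower. The replicate block left 2, both higher, and 0 lower. Without crossbred D1 library 1, 4 genes were called, 0 of them lower. Leaving out each of the 36 libraries in turn gave 0 to 21 calls, 0 to 16 higher and 0 to 7 lower (0 to 9 over the 12 Cornish libraries, 0 to 21 over White Plymouth Rock, 0 to 11 over the crossbred). In 6 of the 36 the count was within 1.5 times 7, which was without Cornish D1 library 3 or D21 library 1, 4 or 6, White Plymouth Rock D21 library 5, or crossbred D1 library 2. The leave-outs of the other breeds, apart from crossbred D1 library 1, were chosen after seeing the data. The difference from the crossbred had 0 calls, 11 with DESeq2 (3 higher, 8 lower), 3 with all 72 libraries (2 and 1), and 0 to 3 (0 higher, 0 to 3 lower) leaving out each of the 36 in turn. Why these counts move was not tested.

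In data simulated from the 12 libraries, 200 of 11318 genes were changed. The test called 17% of those changed by 0.5 and 73% of those changed by 1 on the log2 scale. In the data 6372 of 11398 genes were called, and the adjustment depends on that share. These rates therefore do not measure detection in the comparison of D21 with D1. For the difference from White Plymouth Rock, also simulated with 200 changed genes, the shares called were 7% and 46%. In that simulation no other gene changed with age, and the share of genes that truly differ between breeds is not known. These shares therefore do not measure detection in the data either. A gene that was not called may still differ between breeds, and how often that is so is not known here.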
